A study of Homo sapiens with 9 samples.

Results

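The ephrins and Eph receptors were followed in A549 cells, a human lung adenocarcinoma line, before and after the retroviral transfer of the reprogramming factors OCT3/4, SOX2 and KLF4. The family was chosen by the detection of EFNB2, which was detected on the OSK-A549-Colony arrays and not on the parental A549 arrays, and its 9 genes comprised 5 ephrins (EFNA1, EFNA4, EFNA5, EFNB1 and EFNB2) and 4 receptors (EPHA2, EPHA4, EPHB2 and EPHB4). Every array probe annotated to a RefSeq transcript of a member was taken, which gave 12 probes for these 9 of the 21743 gene names on the array, with 3 probes for EPHB2 and 2 for EPHB4. Each of 3 groups held 3 one-colour Agilent arrays. Parental A549 cells were untransduced and at passage 98 or 99. OSK-A549-Colony cells were the transduced cells of the dome-shaped colonies and OSK-A549-SN cells the spindle-shaped cells that grew out around them, separated by their time in trypsin, both at a later passage. Passage and transduction therefore cannot be told apart, no array held cells transduced with an empty or control vector, and the RNA was prepared from 3 independent transduction experiments.

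Ephrins are ligands that stay attached to the cell surface, the A class by a lipid anchor and the B class by a membrane-spanning segment. Eph receptors form a large family of receptor tyrosine kinases, and contact between neighbouring cells sends a forward signal into the receptor cell and a reverse signal into the ephrin cell. The system is known for cell sorting, boundary formation and repulsion in development, for the arterial (EFNB2) and venous (EPHB4) sides of growing vessels, and, with EPHA2 in the lead, for altered expression in carcinomas.

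Values are given as scaled intensity, the background-corrected spot brightness after each array was brought to a common 75th percentile of 240.7. The 75th percentile before scaling lay between 217.5 and 270.6, and 25808 to 29315 probes were detected on an array. Detection means that the signal was positive, significant and well above the background. A scaled intensity orders the arrays for 1 probe and not 1 probe against another, and a marker gene called the brightest is only the largest term of its list's signal. The number of arrays limits the precision. All 7 epithelial genes expected of A549 (EPCAM, KRT7, KRT8, KRT18, CDH1, AKR1B10 and ALDH1A1) were detected on all 9 arrays. Their summed scaled intensity was 634393 to 690974 on the parental A549 arrays, 624724 to 650421 on the OSK-A549-Colony arrays and 577761 to 683412 on the OSK-A549-SN arrays, with KRT18 the brightest on 8 arrays and AKR1B10 on OSK-A549-Colony replicate 1. Of 12 endothelial genes 4 or 5 were detected per array, EGFL7 being the brightest throughout, and PECAM1, TEK, TIE1, CLDN5, ROBO4 and FLT1 were detected on none. Their summed scaled intensity was 877 to 1456 on the parental A549 arrays, 706 to 792 on the OSK-A549-Colony arrays and 769 to 917 on the OSK-A549-SN arrays. At most 1 of 8 mesenchymal stromal genes was detected on any array (COL1A1), with sums of 28.3 to 46.4 over the 9 arrays. Among leukocyte genes, PTPRC and CD14 were detected on all 9 arrays and CD3E on 2. CD14, the brightest of them, had a scaled intensity of 581 to 1820 on the parental A549 arrays, 488 to 633 on the OSK-A549-Colony arrays and 769 to 997 on the OSK-A549-SN arrays. In limma, 0 of the 7 epithelial genes, of the 5 or 6 endothelial genes and of the 1 mesenchymal stromal gene that were tested passed the call rule given below in any comparison, nor did PTPRC or CD14, beside called shares of all genes of 3.91% in OSK-A549-Colony, 1.64% in OSK-A549-SN, each set against the parental arrays, and 0.0% between the transduced groups, so that with so few genes 0 calls say little. CDH1, the adhesion protein of epithelial junctions, had the largest log2 fold change of the epithelial list against parental A549, -0.996 for OSK-A549-Colony (adjusted p = 0.0318 from limma, fold change just under 2) and -0.83 for OSK-A549-SN (adjusted p = 0.0860 from limma). The part of these genes in the results below was not tested.

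EFNB2, the B-class ephrin that defined the choice, was at background in parental A549 and measured on all 6 transduced arrays. Its scaled intensity was 2.95, 2.61 and 3.33 on the parental arrays, 47.5, 41.2 and 25.1 on the OSK-A549-Colony arrays, and 122.0, 19.0 and 16.8 on the OSK-A549-SN arrays. All transduced arrays lay above all parental arrays, and OSK-A549-SN replicate 1 stood far above the other two arrays of its group. The log2 value was -6.35 ± 0.18 (SD, n = 3) for parental A549, -2.72 ± 0.48 for OSK-A549-Colony and -2.83 ± 1.60 for OSK-A549-SN. Since the parental arrays gave only a bound, EFNB2 was at least 2.79-fold higher in OSK-A549-Colony when counted from the lowest detected intensity. The bound for OSK-A549-SN was at least 2.59-fold higher, and without replicate 1 of that group at least 1.37-fold, a setting chosen after seeing the data. In this bound each parental array counts with the lowest intensity detected on it, or its own value where that was higher. That floor is not a strict limit of detection, since a brighter probe can be undetected. GRIP1 had an unscaled intensity of 15.4 on parental replicate 1 and was not detected, against a lowest detected intensity of 13.4 there. The rule turns on detection, and the dimmest OSK-A549-Colony array had an unscaled EFNB2 intensity of 25.2 against a lowest detected intensity of 12.3 on that array. The parental arrays had 2.74 to 3.12 against lowest detected intensities of 12.5 to 13.5. Because EFNB2 was chosen for this pattern, its differences are described with no p in all comparisons, and a count of calls that includes EFNB2 supports nothing. The fitted log2 difference of OSK-A549-SN from parental A549, 3.53, was 2.60 without OSK-A549-SN replicate 1, and with the normexp background correction it was 0.76, and 0.70 in place of 3.64 for OSK-A549-Colony. Normexp was run with an added offset of 50, which shrinks log2 differences of dim signals. The unscaled EFNB2 intensity was below 50 on all arrays except OSK-A549-SN replicate 1 (117.3). In RNA from whole cultures, a larger share of EFNB2-positive cells and more EFNB2 RNA per cell cannot be told apart.

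EPHA4, a receptor that binds ephrins of both classes, followed EFNB2 over the arrays. Its scaled intensity was 19.7, 19.4 and 22.6 on the parental A549 arrays, 75.1, 33.6 and 36.0 on the OSK-A549-Colony arrays, and 69.7, 37.5 and 24.9 on the OSK-A549-SN arrays. The 6 transduced arrays lay above the 3 parental arrays, and replicate 1 was the brightest of each transduced group, as it was for EFNB2. Pearson's r between the log2 values of EPHA4 and EFNB2 was 0.89 over the 9 arrays and 0.80 over the 6 transduced arrays, given as a description because the step from parental to transduced arrays enters the first value. The 250 bases upstream of each RefSeq start of both genes are shown because EPHA4 had the highest r with EFNB2 among the members. They are read 5′ to 3′ on the gene's strand, and capitals mark a match to one of 3 motifs of the transduced factors.

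EFNB2, chr13:106535663-106535912, minus strand, GRCh38.p14: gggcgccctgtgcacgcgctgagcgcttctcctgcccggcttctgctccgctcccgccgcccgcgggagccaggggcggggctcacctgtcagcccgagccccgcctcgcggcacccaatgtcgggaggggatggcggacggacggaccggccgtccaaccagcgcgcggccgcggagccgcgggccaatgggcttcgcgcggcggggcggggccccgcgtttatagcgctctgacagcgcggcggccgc

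EPHA4, the first start listed, chr2:221574203-221574452, minus strand, GRCh38.p14: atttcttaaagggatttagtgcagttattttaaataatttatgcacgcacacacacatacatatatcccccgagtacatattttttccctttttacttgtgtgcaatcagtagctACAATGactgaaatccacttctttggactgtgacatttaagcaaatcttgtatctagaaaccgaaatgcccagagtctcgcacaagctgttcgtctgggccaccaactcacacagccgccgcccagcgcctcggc

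EPHA4, the second start listed, chr2:221572305-221572554, minus strand, GRCh38.p14: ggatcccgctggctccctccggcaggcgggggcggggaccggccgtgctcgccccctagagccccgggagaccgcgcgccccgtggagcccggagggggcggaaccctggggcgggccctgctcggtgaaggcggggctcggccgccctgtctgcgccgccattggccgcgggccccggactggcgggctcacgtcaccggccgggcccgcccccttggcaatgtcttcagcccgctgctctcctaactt

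The motifs were ATGCAAAT (the octamer bound by OCT3/4), ACAATG (SOX2) and GGGTGTGG (KLF4), searched on both strands, that is also as ATTTGCAT, CATTGT and CCACACCC. ACAATG occurred once, 135 bases before the first EPHA4 start, and the other sequences held none of the 3. Among the 35116 upstream sequences of the same length, 1.63% held the octamer, 9.29% the SOX2 motif and 2.97% the KLF4 motif. The share of G and C was 78.4% upstream of EFNB2, 43.2% and 78.0% upstream of the EPHA4 starts, and 58.0% in the median of all upstream sequences, with 40, 9 and 30 CpG dinucleotides against a median of 11. All 9 members had an entry in the RefSeq promoter table, with 11 starts. A match is a run of letters and not a shown binding site.

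**Figure D1:**
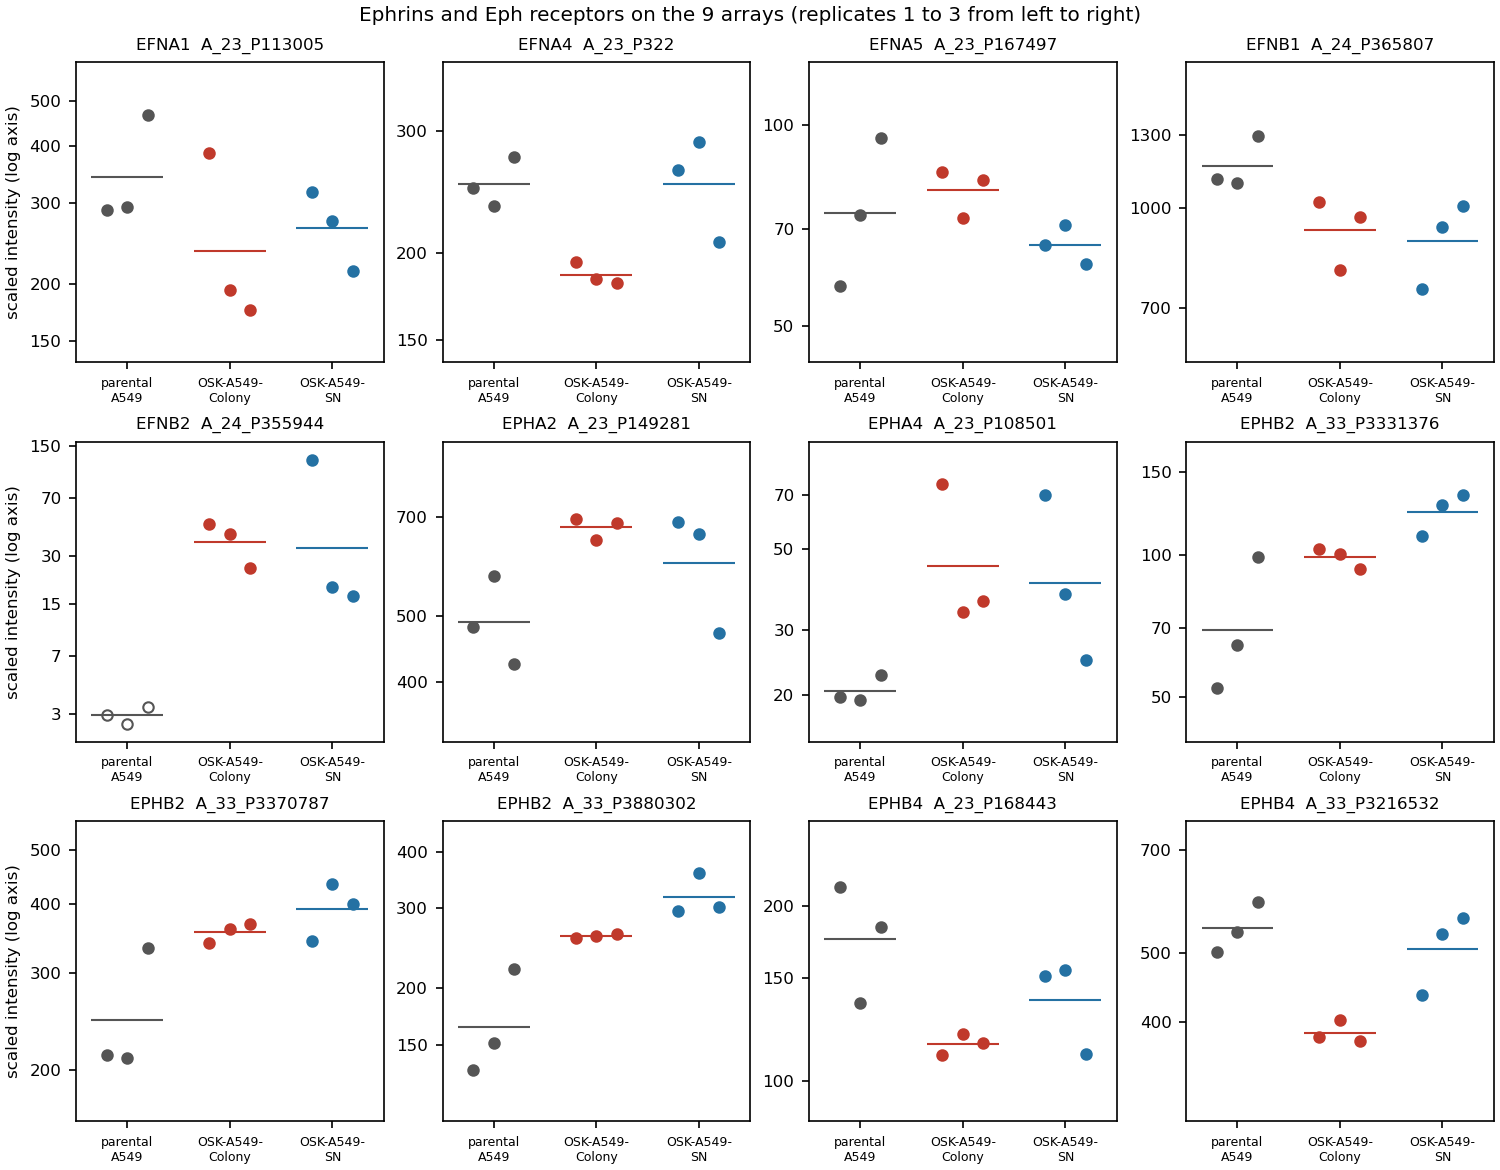
Scaled intensity (log axis) of the 12 member probes on the 9 arrays, with replicates 1 to 3 from left to right in each group. Filled points are detected and open points are not, and lines are geometric means of 3 arrays. EFNB2 and EPHA4 lie higher on all 6 transduced arrays than on the 3 parental arrays, and both EPHB4 probes lie lower on the 3 OSK-A549-Colony arrays than on the parental arrays.

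Against parental A549, the other ephrins were lower in OSK-A549-Colony for EFNB1 and EFNA4, with EFNA1 and EFNA5 overlapping. EFNB1, the other B-class member, had 1112, 1095 and 1299 on the parental A549 arrays, 1025, 803 and 969 on the OSK-A549-Colony arrays, and 750, 935 and 1007 on the OSK-A549-SN arrays, so that both transduced groups lay below the parental arrays. EFNA4 had 248, 234 and 275 on the parental A549 arrays, 194, 184 and 182 on the OSK-A549-Colony arrays, and 264, 289 and 207 on the OSK-A549-SN arrays. The OSK-A549-Colony arrays of EFNA4 were the 3 lowest of the 9. EFNA1 ranged from 290 to 468 on the parental A549 arrays, from 176 to 386 on the OSK-A549-Colony arrays and from 213 to 317 on the OSK-A549-SN arrays. EFNA5 ranged from 57.4 to 95.7, from 72.6 to 85.3 and from 62.0 to 70.9 in the same order of groups. OSK-A549-Colony replicate 1 was the brightest EFNA1 array of its group, at 386 against 195 and 176.

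Among the receptors, EPHB2 lay higher and EPHB4 lower in OSK-A549-Colony. EPHB2, a receptor for B-class ephrins, was read by 3 probes, of which A_33_P3880302 had 132, 151 and 221 on the parental A549 arrays, 259, 260.4 and 264 on the OSK-A549-Colony arrays, and 297, 359 and 302 on the OSK-A549-SN arrays. Its group order, parental below OSK-A549-Colony below OSK-A549-SN, had no overlap between neighbours. For A_33_P3370787 and A_33_P3331376 the means stood in the same order, while OSK-A549-Colony and OSK-A549-SN overlapped on the former and parental replicate 3 (98.8) lay within OSK-A549-Colony (93.1 to 103) on the latter. EPHB4, the receptor with EFNB2 as its main ligand, had 503, 537 and 592 on the parental A549 arrays, 380.0, 403 and 376 on the OSK-A549-Colony arrays, and 437, 533 and 561 on the OSK-A549-SN arrays with probe A_33_P3216532. Its other probe had 215, 136 and 184, then 111, 120.5 and 116, then 151, 155 and 111. On both EPHB4 probes the OSK-A549-Colony arrays lay below all parental arrays, and OSK-A549-SN overlapped parental A549. EPHA2, a receptor for A-class ephrins, had 482, 573 and 424 on the parental A549 arrays, 694, 647 and 685 on the OSK-A549-Colony arrays, and 687, 659 and 471 on the OSK-A549-SN arrays. The OSK-A549-Colony arrays of EPHA2 lay above all parental arrays, and OSK-A549-SN overlapped both groups.

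In the comparison of OSK-A549-Colony with parental A549, which chose the family, 1143 of 30859 tested probes (3.7%) were called in limma, where a call needs a fold change over 2 and a p under 0.05 after Benjamini-Hochberg adjustment, and so was 1 of the 12 member probes, EFNB2, an outcome tied to the choice of the family. Groups did not overlap on 9 of the 12 member probes, 5 higher and 4 lower, against 41.6% of all tested probes. Nothing is read from these counts. In log2, the difference was 1.13 for EPHA4, 0.46 for EPHA2, 0.52 to 0.67 for the EPHB2 probes, -0.60 and -0.49 for the EPHB4 probes, -0.43 for EFNA4, -0.33 for EFNB1, -0.54 for EFNA1 and 0.12 for EFNA5. EPHA4 had 0.76 without OSK-A549-Colony replicate 1, 0.41 with normexp and 1.87 with the row of the slide as a block. It was called beside EFNB2 with median scaling (1.29), among probes detected on all arrays of a group and at unadjusted p. Nothing is read from these calls. EFNA5 had -0.07 without parental A549 replicate 1, and EFNA1 ran from -0.89, leaving out OSK-A549-Colony replicate 1, to -0.31, leaving out parental A549 replicate 3. The comparisons below share their parental or OSK-A549-Colony arrays with this one.

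Between OSK-A549-SN and parental A549, which asks whether the spindle-shaped cells differ from the untransduced line, EFNB2 aside, no member passed the test. Limma called 498 of 32215 probes (1.55%), with 227 higher and 271 lower, and 0 of the 11 member probes tested. At an unadjusted p under 0.05, 4 of the 11 passed, EPHA4 and all 3 EPHB2 probes, against 21.6% of all tested probes. The EPHB2 probes share 1 transcript and are not separate evidence. EPHB2 was 1.94-fold higher in OSK-A549-SN on A_33_P3880302 (log2 fold change 0.96 with a standard error of 0.22, limma adjusted p = 0.0936), with all 3 OSK-A549-SN arrays above all parental arrays. The adjusted p of this probe was 0.0259 to 0.267 over the alternatives. It passed 0.05 in a fit on all 9 arrays, with normexp and among probes detected on all arrays of a group, where the fold stayed under 2. The log2 fold change was 0.83 (adjusted p = 0.149) and 0.67 (adjusted p = 0.172) on the other two EPHB2 probes. EPHA4 was 1.96-fold higher (log2 fold change 0.97 with a standard error of 0.38, limma adjusted p = 0.212). The log2 fold change of EPHA4 was 0.57 without OSK-A549-SN replicate 1 and 0.35 with normexp. EFNB1 had a log2 fold change of -0.39 (95% confidence interval -0.80 to 0.02, adjusted p = 0.251 from limma). Groups did not overlap on 6 of the 12 member probes, against 32.1% of all tested probes, and these were EFNB2, EPHA4 and the 3 EPHB2 probes, higher in OSK-A549-SN, and EFNB1, lower. For EFNA4 the log2 fold change was -0.004 (95% confidence interval -0.42 to 0.42), which does not show equal levels. Under median scaling its sign was the opposite.

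For the 2 cell forms of the transduced cultures, with the OSK-A549-SN arrays as the reference, limma called 0 of 31742 probes (0.0%) and 0 members, and 662 probes had an unadjusted p under 0.05 with a fold change over 2. At an unadjusted p under 0.05 alone, 5 of the 11 tested member probes passed, against 19.5% of all tested probes, which held 6181 such probes. EFNA4 was 1.35-fold lower in OSK-A549-Colony (log2 fold change -0.43 with a standard error of 0.14, limma adjusted p = 0.204). EPHB4 had a log2 fold change of -0.39 on A_33_P3216532 (adjusted p = 0.187 from limma) and -0.25 on A_23_P168443 (adjusted p = 0.406). EPHB2 had -0.32, -0.14 and -0.29 on its 3 probes, with adjusted p between 0.213 and 0.523. EFNA5 was the probe with the opposite sign among the 5, at 0.27 (adjusted p = 0.242 from limma). Groups did not overlap on these 5 probes, EFNA4, EFNA5, A_33_P3331376 and A_33_P3880302 of EPHB2 and A_33_P3216532 of EPHB4, against 30.8% of all tested probes. EFNB2 had a log2 difference of 0.11 between group means, which ranged from -0.40 (OSK-A549-SN replicate 3 left out) to 1.03 (OSK-A549-SN replicate 1 left out) over the fits lacking 1 array. It was -0.40 with the slide as a block and -0.06 with normexp. The smallest adjusted p of a member other than EFNB2 was 0.187, so no member was shown to differ between the 2 transduced groups.

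**Figure D2:**
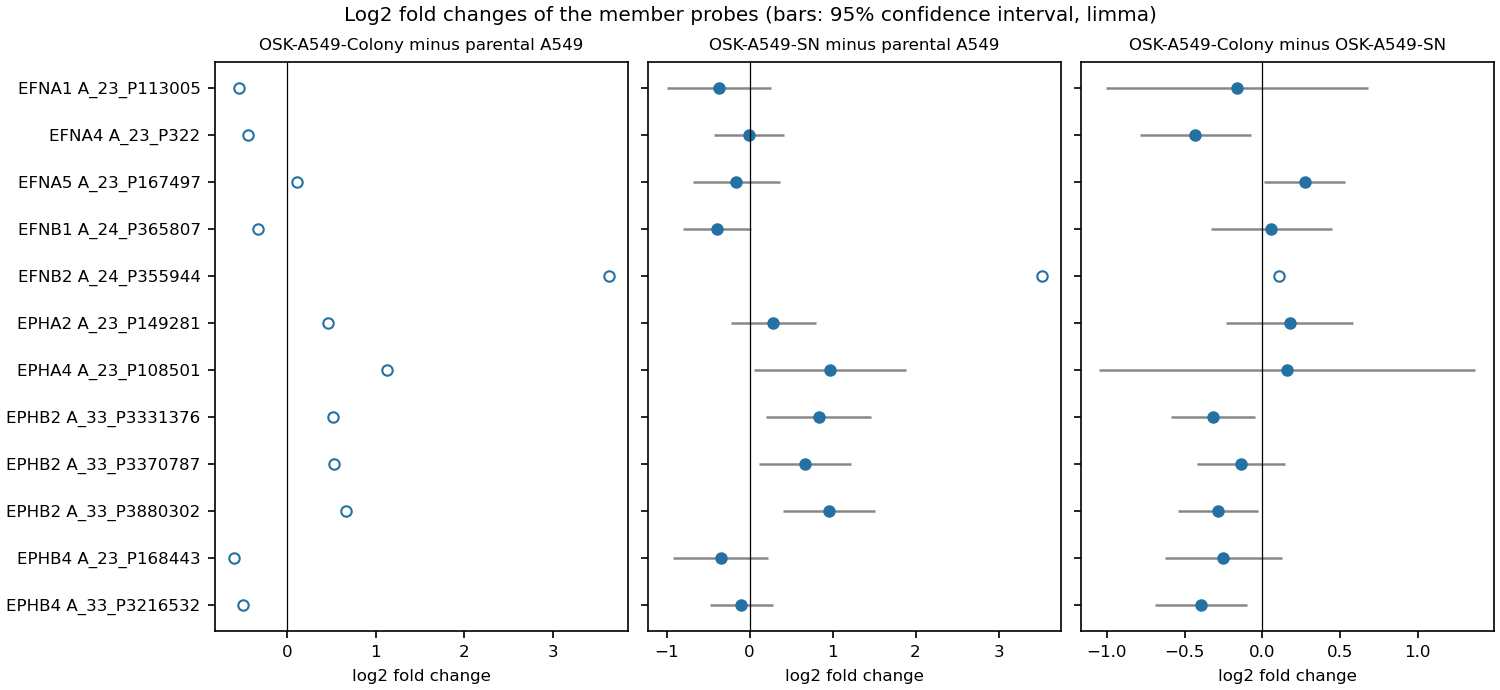
Log2 fold changes of the 12 member probes in 3 comparisons, each on its own axis. Filled points carry a 95% confidence interval from limma, and open points (EFNB2 and the comparison that chose the family) are described without a test. Fitted values of EFNB2 against parental A549 (3.64 and 3.53) rest on parental signals below detection. Counted from the lowest detected intensity, which is not a strict limit, the bounds are at least 2.79-fold and at least 2.59-fold higher.

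Of the 13 other genes of the family with a probe, 7 had a probe detected on at least 1 array. EFNB3, the third B-class ephrin, was detected on the 3 parental arrays, on 0 OSK-A549-Colony arrays and on 1 OSK-A549-SN array. Its scaled intensity was 16.5, 21.4 and 54.5 on the parental A549 arrays, 6.08, 10.2 and 7.56 on the OSK-A549-Colony arrays, and 9.93, 10.6 and 14.8 on the OSK-A549-SN arrays. With the OSK-A549-Colony arrays counted from their lowest detected intensity, EFNB3 was at least 2.48-fold higher in parental A549 than in OSK-A549-Colony. Without parental replicate 3, which held the highest value, this bound was 1.74-fold. The direction was opposite to that of EFNB2, and the difference was not called (adjusted p = 0.0748 from limma). All 3 OSK-A549-SN arrays lay below the parental arrays for EFNB3 (adjusted p = 0.211 from limma), but 2 of them were not well above background, so no size is given. EFNA3 was detected on all parental and OSK-A549-SN arrays and on 1 OSK-A549-Colony array, and with 2 of the OSK-A549-Colony arrays not well above background no size is given for its lower OSK-A549-Colony mean (adjusted p = 0.214 from limma against OSK-A549-SN, the arrays overlapping). EPHB6 had 46.4, 45.9 and 65.7 on the parental A549 arrays, 39.7, 34.9 and 27.1 on the OSK-A549-Colony arrays, and 39.9, 38.6 and 30.9 on the OSK-A549-SN arrays, with both transduced groups below the parental arrays (adjusted p = 0.118 and 0.215 from limma). EPHB3 ranged from 29.4 to 50.4 and probe A_24_P930741 of EPHA10 from 65.8 to 138 over the 9 arrays. EPHA3 was detected on parental replicate 3 alone, at 46.0, and EPHA7 on OSK-A549-Colony replicate 3 alone, at 17.4. EFNA2, EPHA1, EPHA5, EPHA6, EPHA8 and EPHB1 were detected on no array.

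**Figure D3:**
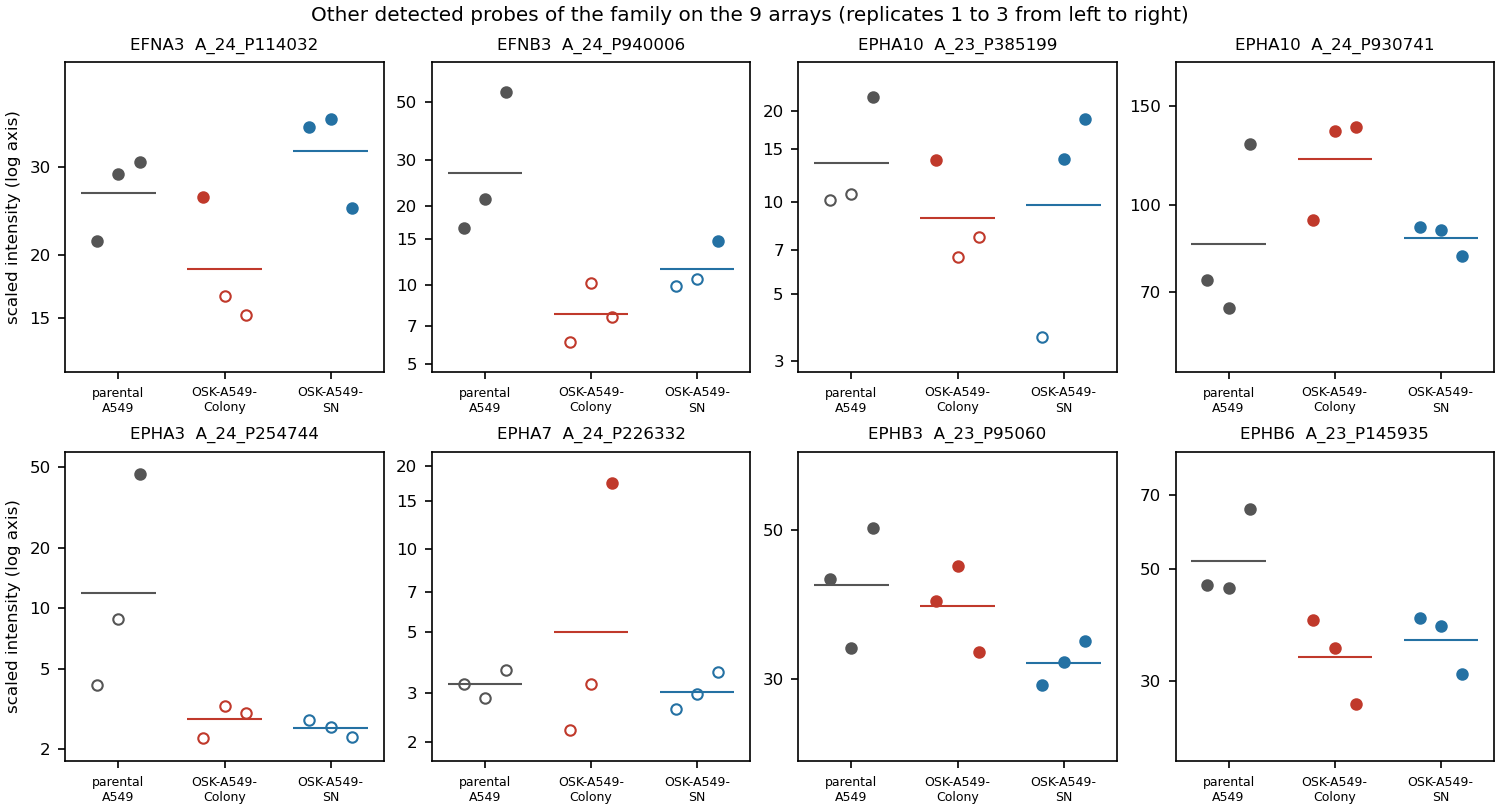
Scaled intensity (log axis) of the 8 detected probes of the other family genes on the 9 arrays, drawn as for the members, with open points where the probe was not detected. EFNB3 is detected on all parental arrays and on no OSK-A549-Colony array.

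The proteins that act with the family were taken as lists, 1 probe per gene. Of 36 partners of forward signalling, the exchange factors, adaptors and kinases that act on the receptor side, 35 were tested for OSK-A549-Colony against the parental cells, 26 higher and 9 lower, with a median log2 fold change of 0.14 against 0.03 over all genes. The 1 partner called was GRB7, an adaptor of receptor tyrosine kinases, at -1.09 in log2 with a standard error of 0.15 (limma adjusted p = 0.0239), lower on all 3 OSK-A549-Colony arrays, while 3.91% of all genes were called. Without 1 array its difference was -0.99 to -1.19, but the call was lost for 5 of the 6 arrays. With normexp (-0.84, limma adjusted p = 0.0064) and median scaling (-0.94, limma adjusted p = 0.0204) it was lost because the fold was under 2. The same held without parental A549 replicate 3 (-0.99, limma adjusted p = 0.0289). GRB7 also lost its call with the replicate number as a block (-1.09, limma adjusted p = 0.121) and with the slide row as a block (-0.89). In OSK-A549-SN it had -0.74 (adjusted p = 0.0836 from limma), and no partner was called there, where 1.64% of all genes were called and 19 of 34 partners were higher and 15 lower (median 0.075 against 0.092 over all genes). Between the transduced groups 24 of 35 were higher in OSK-A549-Colony and 11 lower, with a median of 0.09 against -0.025 over all genes and no call, as for all genes (0.0%). TIAM1 is an exchange factor of RAC1 that binds B-class ephrins and EPHA2. It had the largest difference of the list between the transduced groups, -0.99 (adjusted p = 0.137 from limma). All 3 OSK-A549-SN arrays lay above the parental arrays for TIAM1 (adjusted p = 0.0814 from limma). It was not detected on parental replicate 3, so no size is given, and it is named there outside the naming rule. Of 12 reverse signalling partners 11 were tested in OSK-A549-Colony against parental A549, 8 higher and 3 lower, with a median of 0.37 and 0 calls. In OSK-A549-SN against the parental arrays 7 were higher and 3 lower (median 0.20), and between the transduced groups 7 were higher in OSK-A549-Colony and 4 lower (median 0.033), again with 0 calls. The called shares and medians over all genes were 3.91% and 0.031, 1.64% and 0.092, and 0.0% and -0.025 in the same order of comparisons. PTPN13, the phosphatase that binds the tail of B-class ephrins, had 0.74 in OSK-A549-Colony against parental A549 (adjusted p = 0.0686 from limma), where CLDN4 had 0.74 (adjusted p = 0.188) and CLDN1 0.60 (adjusted p = 0.0769). CLDN1, a tight junction protein that pairs with B-class ephrins, was higher on the 3 OSK-A549-Colony arrays than on the OSK-A549-SN arrays, by 0.94 in log2 (limma adjusted p = 0.106). Of 11 sheddases and intramembrane proteases, which cut ephrins and receptors, 0 were called in the 3 comparisons, beside 3.91%, 1.64% and 0.0% of all genes. Their median log2 fold change was 0.11 for OSK-A549-Colony and 0.005 for OSK-A549-SN against the parental arrays, and 0.028 between the transduced groups, beside 0.031, 0.092 and -0.025 over all genes. APH1B, a part of gamma-secretase, had -0.93 in OSK-A549-Colony against parental A549 (adjusted p = 0.0458 from limma) but a fold change under 2, and -0.78 in OSK-A549-SN (adjusted p = 0.145 from limma), where ADAM12 had 0.68 (adjusted p = 0.142 from limma).

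The genes most like EFNB2 were taken from the 19374 named probes detected on all 3 OSK-A549-Colony arrays, by Pearson's r over the 9 arrays. They were TMEM171 (0.965), PREX1 (0.963), SLAMF7 (0.961), PI3 (0.960) and SULT6B1 (0.960). PREX1, an exchange factor of RAC, had 258, 247 and 265 on the parental A549 arrays, 784, 663 and 629 on the OSK-A549-Colony arrays, and 736, 588 and 529.7 on the OSK-A549-SN arrays. Over the 6 transduced arrays alone r was 0.78 to 0.90 for these 5, a description only, since the genes were picked by r over arrays that include these 6. SLAMF7 and SULT6B1 were, like EFNB2, detected on no parental array. Among the members EPHA4 had the highest r with EFNB2, and EFNB1 had the lowest over the 9 arrays, -0.85 (-0.72 over the 6). The EPHB2 probes had 0.64 to 0.75 over the 9 arrays but -0.80 to -0.33 over the 6, with negative values for all 3 probes within the transduced cultures.

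**Figure D4:**
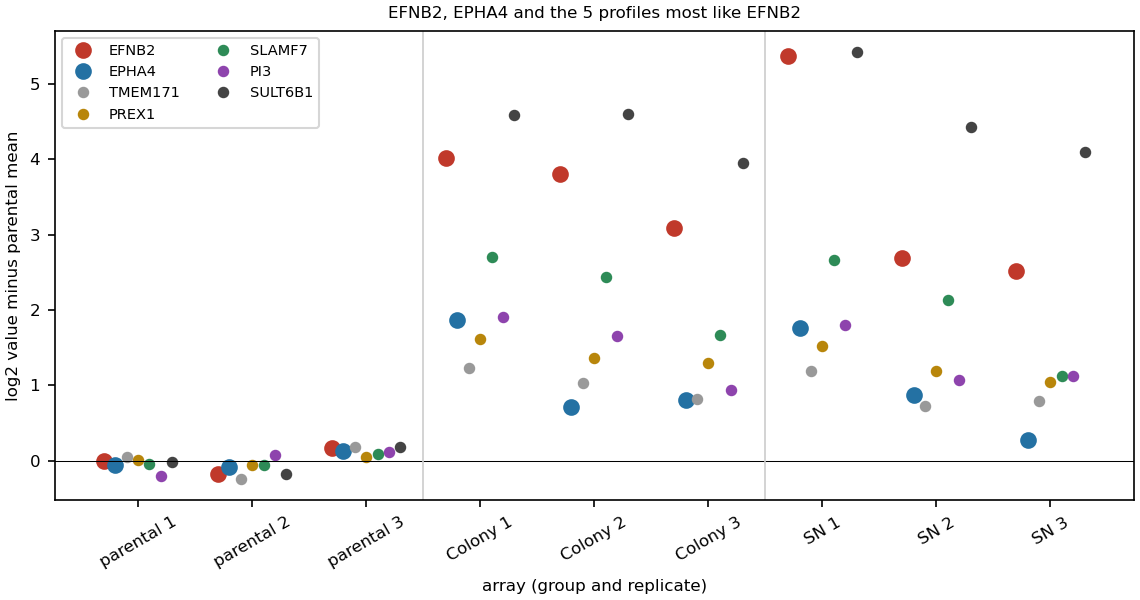
Log2 values of EFNB2, EPHA4 and the 5 genes most like EFNB2 on each array, minus the parental mean of the gene. EFNB2, SLAMF7 and SULT6B1 were detected on no parental array, so their distances from that mean are no measured differences. Replicate 1 of OSK-A549-SN has the highest EFNB2 value of the 9 arrays, at a scaled intensity of 122.0.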

How the data were processed

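RNA of 9 samples was hybridised to one-colour Agilent human arrays. The authors deposited the intensity of each spot from Agilent Feature Extraction 11.5.1.1, background-corrected and not scaled between arrays, and a table of log2 values, equal to those used here after subtraction of 1 constant for each array (100% of probes within 0.001). Control spots (4259 of 62976) and outlier spots (357 to 484) were left out, no spot was saturated, log2 values of a probe's spots were averaged, and the array's 75th percentile was subtracted. Detection required a share of 0.5 or more of a probe's spots to be positive, significant and well above background. RefSeq accessions named 30275 of 50599 probes (GRCh38.p14 table). Each comparison was fitted with limma 3.58.1 in R 4.3.3 on its 6 arrays, over probes detected on at least 1, and tested on simulated data. All 12 member probes passed that filter, EFNB2 through its transduced arrays. Named were all member probes, detected family genes, the called genes of each list or else its 3 largest differences among genes detected on all 6 arrays (TIAM1 also where it was not), and the 5 genes most like EFNB2; a gene stood in a list by its brightest probe. The text gives a selection of the list genes. Members and lists were chosen with earlier results of these data known. Alternatives were normexp (offset 50, median brightness), quantile and median scaling, other detection filters, slide, row and replicate blocks, 1 fit, the deposited table, unadjusted p and leaving out each array.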

Additional observations from a re-analysis of the deposited data

How the results depend on the processing

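Array number and dim signals limit these results: EFNB2 and EFNB3 lie near background, where the background correction changed the EFNB2 difference. The following counts of called probes moved, and the cause was not tested unless fewer arrays or probes entered the fit. For OSK-A549-Colony against parental A549, 1143 calls became 333 with normexp, 583 without a detection filter, 2038 at unadjusted p and 159 with the row of the slide as a block, which was chosen after seeing the data. Parental arrays lay in row 1 alone, so that block leaves OSK-A549-Colony replicate 1 or OSK-A549-SN replicate 3 as the only array set against them, assumed to vary like the others. Without 1 array they were 0 to 1362: 0 without OSK-A549-Colony replicate 2, 1 without parental A549 replicate 2, 85 without OSK-A549-Colony replicate 3 and 141 without OSK-A549-Colony replicate 1. Member calls (1) were 0 with normexp, 2 with median scaling, with probes detected on all arrays of a group, at unadjusted p and with the row as a block, and 0 to 1 without 1 array. Median scaling moved the median log2 fold change of all probes from -0.03 to 0.13 and the calls from 529 higher and 614 lower to 869 and 425, and quantile normalization gave 638 and 505; the sign of no member changed under either. Between the transduced groups, median scaling moved the median of all probes from -0.06 to 0.07. There, 0 calls became 32 with normexp, 139 with probes detected on all arrays of a group, 2 in 1 fit of 9 arrays and 662 at unadjusted p, and 0 without any 1 array; member calls were 0 in all settings. For OSK-A549-SN against parental A549, 498 calls became 232 with normexp, 215 without a filter, 980 with probes detected on all arrays of a group, 187 with the slide as a block, 1054 in 1 fit, 1879 at unadjusted p, 233 with the row as a block, and 0 to 190 without 1 array (leaving out parental A549 arrays 1, 2 or 3 gave 44, 2 or 158, and leaving out OSK-A549-SN arrays 1, 2 or 3 gave 0, 0 or 190). Member calls (0) were 1 with probes detected on all arrays of a group, in 1 fit and at unadjusted p; counts that include EFNB2 support nothing. The slide could not be fitted for OSK-A549-Colony against parental A549, which share slide 1.

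With the replicate number as a block, called probes were 0 and called member probes 0 in all 3 comparisons. Same-numbered arrays did not deviate together throughout (r of -0.053 to -0.007 for parental A549 and OSK-A549-Colony, -0.196 to 0.15 for parental A549 and OSK-A549-SN, 0.073 to 0.239 for OSK-A549-Colony and OSK-A549-SN). OSK-A549-Colony and OSK-A549-SN arrays of 1 number share their passage and had the highest r of those groups, but the labels name no pairs.

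Of the member log2 fold changes under the alternatives, 14 of tested values changed sign and 9 of values without a test moved by over 1 SD. The other 577 kept direction and side of the call rule (p and fold together) where tested, and moved by less than 1 SD where not. The sign also changed for EFNA1 (0.172 with the row as a block), EFNA5 and EFNB2 without a test. Slide 2 held OSK-A549-SN replicate 3 alone, so the slide as a block and leaving out that array are 1 contrast. Between the transduced groups the sign changed for EPHA4 with the slide as a block (-0.186), and leaving out 1 array gave -0.210 (OSK-A549-Colony replicate 1) to 0.557 for EPHA4, -0.518 to 0.049 (OSK-A549-Colony replicate 3) for EFNA1 and -0.065 (OSK-A549-SN replicate 1) to 0.162 for EFNB1. For OSK-A549-SN against parental A549 it changed for EFNA4 with median scaling (0.026) and the slide as a block (0.134), for EPHA2 with the row as a block (-0.055) and for EPHB4 A_33_P3216532 with the row as a block (0.048). Leaving out 1 array gave -0.106 to 0.134 (OSK-A549-SN replicate 3) for EFNA4, -0.339 to 0.029 (parental A549 replicate 3) for EFNA5 and -0.169 to 0.011 (OSK-A549-SN replicate 1) for EPHB4 A_33_P3216532. The cause was not tested.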
